A study of Mus musculus and Homo sapiens with 81 samples.

Results

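The genes described here are the ligands and receptors of the tumour necrosis factor (TNF) superfamilies that carry Tnfsf or Tnfrsf symbols, followed in 5 tumour cell lines that were given interferons or TNF with and without the phosphatase gene Ptpn2. Members were taken by symbol alone: the rows analysed here whose name begins with Tnfsf or Tnfrsf in the mouse table, or TNFSF or TNFRSF in the human tables. The mouse table of 23336 rows holds 27 members, and each of the 4 human tables of 23227 rows holds 29, so that 143 of 116244 rows over the 5 tables are members. The mouse members are 10 ligands and 17 receptors by name. A member was said to reach 1 CPM (counts scaled to library size) when its mean over the libraries of at least 1 group of genotype and stimulus was 1 or more.

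Ligands of the superfamily are trimeric proteins that sit on the cell surface or are released from it, and their receptors are membrane proteins that cluster when bound. Receptors with a death domain can recruit FADD and caspase-8, and most others recruit TRAF adaptors that lead to the transcription factor NF-kB. Some receptors have no signalling tail and act as decoys. In tumours the family is known both for receptors that tumour cells carry, such as the TWEAK receptor Fn14 (gene Tnfrsf12a), and for co-stimulatory pairs mostly described on leukocytes, such as 4-1BB and its ligand (Tnfrsf9 and Tnfsf9). PTPN2 is a tyrosine phosphatase that acts on signalling proteins downstream of interferon receptors.

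B16 is a mouse melanoma line, A375 and MelJuSo are human melanoma lines, A549 is a lung carcinoma line and HT29 a colon carcinoma line. All cells had received a lentiviral guide RNA, so no group is without one. Control B16 cells carried the non-targeting guide Bro3 and control human cells Bro4, and the cells called Ptpn2-null here carried the guide Ptpn2sg3, so each genotype rests on a single guide. B16 cells of both genotypes were kept for 48 h with vehicle (PBS with albumin), 1000 U/mL interferon-beta (IFNb), 100 ng/mL interferon-gamma (IFNg), 10 ng/mL TNF-alpha (TNFa), or any pair of them, in 14 groups of 3 libraries. The human lines were given vehicle or 100 ng/mL IFNg for 48 h, with 2 libraries per group in A549 and HT29 and 3 in MelJuSo and A375, where labelled control vehicle has 2. The labels do not say whether the libraries of a group came from separate cultures or whether a line is a clone, so p-values measure the spread between these libraries.

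Over the 81 poly(A) RNA libraries the total counts ran from 3498860 to 6432517 in B16 and from 4191317 to 9605776 in the human lines. Ptpn2 was 44.7 to 61.8 CPM in the 21 control B16 libraries and 8.23 to 16.4 CPM in the 21 Ptpn2-null ones, without overlap. It was also lower under each treatment in the libraries labelled Ptpn2-null of A549, HT29 and MelJuSo. In A375 PTPN2 under IFNg was 11.2 to 13.6 CPM where the label says Ptpn2-null against 17.2 to 22.8 CPM in labelled control, but 24.1 to 25.1 CPM against 11.8 to 12 CPM under vehicle. The A375 vehicle libraries therefore go against their labels, and A375 groups are named as labelled throughout. In B16 all 8 melanocyte markers were expressed, with group ranges of their summed level between 6811 and 28534 CPM that moved with treatment. The summed level of 12 leukocyte markers there was 0.205 to 2.70 CPM, with Ptprc and Cd3e near 0. MelJuSo expressed 8 of 8 melanocyte markers and A375 3 of 8, with DCT and TYR near 0. A549 and HT29 expressed 5 of 5 epithelial markers, but of the lung list A549 reached 1 CPM only in NAPSA, and of the colon list HT29 did so in VIL1 and LGALS4. In HT29 the leukocyte list summed to 1979 to 2979 CPM through LYZ and ITGAM, with PTPRC and CD3E near 0. One HT29 control library given IFNg (replicate 1) carries a lung label for its cell type. In 5 of the 42 B16 libraries expressed genes deviated from the group mean by over 0.13 log2 units (root mean square). They were control IFNb+IFNg replicates 2 and 3, Ptpn2-null IFNb+IFNg replicate 3, Ptpn2-null IFNg+TNFa replicate 1 and Ptpn2-null TNFa replicate 1.

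Promoter sequences are shown for 3 B16 receptors because each stands for a different response to IFNg and TNFa given together: Tnfrsf9 rose far more than with TNFa alone, Tnfrsf12a rose with either and further with both, and Tnfrsf25 rose with TNFa but not with both. Of the 10 members that reached 1 CPM in B16, 6 have an entry in the RefSeq promoter table (GRCm38.p6), which runs from 250 bases before to 50 after a start site. Each was searched on both strands for 3 letter patterns: TTTC, any 2 bases and TTTC (interferon-stimulated response element), TTCNNNGAA (gamma-activated site) and the NF-kB consensus. Matches are in capitals, and everything else is in lower case.

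Tnfrsf9 promoter 2, chr4:150927749-150928048, plus strand: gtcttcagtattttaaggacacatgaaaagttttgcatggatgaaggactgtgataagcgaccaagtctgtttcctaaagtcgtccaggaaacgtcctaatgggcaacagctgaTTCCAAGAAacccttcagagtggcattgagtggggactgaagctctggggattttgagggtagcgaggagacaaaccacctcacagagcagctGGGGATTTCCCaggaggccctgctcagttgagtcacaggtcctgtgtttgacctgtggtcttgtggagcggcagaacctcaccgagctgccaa

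Tnfrsf12a, chr17:23677400-23677699, minus strand: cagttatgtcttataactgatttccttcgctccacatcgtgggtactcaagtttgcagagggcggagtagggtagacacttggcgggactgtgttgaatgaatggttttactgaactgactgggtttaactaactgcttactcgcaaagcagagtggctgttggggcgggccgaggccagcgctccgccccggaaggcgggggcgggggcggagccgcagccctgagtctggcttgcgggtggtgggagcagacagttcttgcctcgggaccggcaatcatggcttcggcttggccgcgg

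Tnfrsf25 promoter 2, chr4:152116093-152116392, plus strand: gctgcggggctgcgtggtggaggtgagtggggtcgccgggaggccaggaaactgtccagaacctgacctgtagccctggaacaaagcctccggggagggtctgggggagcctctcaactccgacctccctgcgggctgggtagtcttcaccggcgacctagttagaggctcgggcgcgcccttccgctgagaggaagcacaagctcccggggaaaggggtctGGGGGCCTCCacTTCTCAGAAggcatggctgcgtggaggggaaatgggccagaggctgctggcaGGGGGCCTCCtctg

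Tnfrsf9 promoter 2 holds a gamma-activated pattern 136 bases before the start and 2 overlapping NF-kB matches that begin 43 and 42 bases before it. Tnfrsf25 promoter 2 holds a gamma-activated pattern 16 bases before the start and NF-kB matches that begin 28 bases before and 36 after it. The Tnfrsf12a window holds none of the 3 patterns, and neither does the other listed promoter of Tnfrsf9 or of Tnfrsf25. Over 32841 promoters of the same length, 3.44% hold the interferon-stimulated pattern, 8.3% the gamma-activated one and 8.46% the NF-kB one. Among the other members, Tnfrsf18 and 1 of 2 Tnfrsf19 promoters hold a gamma-activated match, and Tnfrsf23 holds none. A match in letters is not a measured binding site.

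In B16, 10 of 27 members reached 1 CPM in some group, 2 ligands (Tnfsf9 and Tnfsf12) and 8 receptors (Tnfrsf9, Tnfrsf11b, Tnfrsf12a, Tnfrsf18, Tnfrsf19, Tnfrsf22, Tnfrsf23 and Tnfrsf25). Only 6 of them did so in control cells under vehicle. Another 9 members had no count in any of the 42 libraries: Tnfrsf11a (RANK), Tnfrsf13b, Tnfrsf17, Tnfrsf21, Tnfsf4, Tnfsf8, Tnfsf11 (RANK ligand), Tnfsf14 and Tnfsf15. The member nearest above the threshold was Tnfrsf18 at 1.26 CPM, and the nearest below was Tnfsf13b at 0.923 CPM.

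Among the human lines A375 reached 1 CPM in 17 of 29 members, A549 in 14, HT29 in 13 and MelJuSo in 9. The lowest members inside the threshold were TNFRSF11A at 2.76 CPM in A375, TNFSF13 at 1.45 in A549, TNFRSF9 at 1.35 in HT29 and TNFSF4 at 1.22 in MelJuSo. The highest outside it were TNFRSF13C at 0.763 CPM in A375, TNFRSF25 at 0.790 in A549, TNFRSF11B at 0.750 in HT29 and TNFRSF25 at 0.883 in MelJuSo. Over the 4 human lines 20 members reached 1 CPM somewhere, and 6 did so in every line: TNFSF9, TNFRSF1B (TNF receptor 2), TNFRSF10A (a TRAIL receptor), TNFRSF11A, TNFRSF12A and TNFRSF21 (death receptor 6). The 9 that reached it in none were TNFSF8, TNFSF11, TNFRSF4, TNFRSF6B, TNFRSF13B, TNFRSF13C, TNFRSF17, TNFRSF18 and the read-through row TNFSF12-TNFSF13. The receptors of the B cell factors BAFF and APRIL (TNFRSF13B, TNFRSF13C and TNFRSF17) were thus under the threshold in all 5 lines, while the ligand genes TNFSF13B and TNFSF13 each reached it in 3. Of the members with a row in both species, 7 reached 1 CPM in B16 and in a human line.

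**Figure D1:**
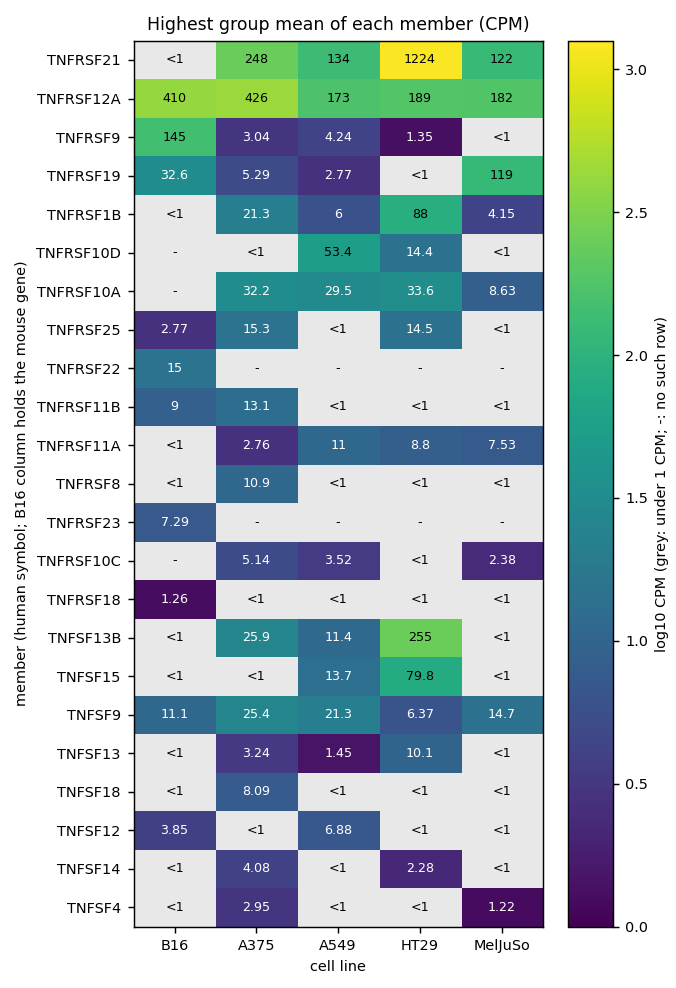
Highest group mean of each member in each line, on a log10 CPM colour scale, with cells under 1 CPM in grey. B16 has 10 coloured members and A375 has 17, and the receptors coloured in all 4 human lines include TNFRSF12A and TNFRSF21.

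Tnfrsf12a was the most abundant member in control B16 cells under vehicle. Divided by exon length, its level was 19.5 CPM per kb, followed by Tnfsf9 at 4.0, Tnfrsf19 at 3.07, Tnfsf12 at 1.69, Tnfrsf22 at 1.32 and Tnfrsf9 at 0.519 CPM per kb. As CPM, before division by length, these were 37.7 ± 3.97, 5.17 ± 1.24, 14.5 ± 1.87, 2.55 ± 0.593, 5.56 ± 0.653 and 1.41 ± 1.1 (SD, n = 3). The ranges of Tnfsf9 and Tnfrsf22 overlapped as CPM, so their order rests on length. The other members were under 0.3 CPM per kb in this group.

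The cytokine responses were tested with edgeR on every gene of a line's table, and a gene was called when its adjusted p was under 0.05. Of the 27 B16 members 9 passed the filter on low counts (Tnfrsf18 did not), among 11726 genes tested. A member that passes the filter only through a group where it is high has to differ between groups, so the counts below describe the members and are not a share of the family. Tnfrsf11b, Tnfrsf23 and Tnfrsf25 had 5, 6 and 9 counts in the control vehicle libraries and passed through other groups, where they were higher. Their differences from vehicle were thus partly set by the filter, and their p-values are no independent support. Under single cytokines in control cells 4 members rose with IFNb (Tnfsf9, Tnfrsf19, Tnfrsf22 and Tnfrsf23), while 30.5% of all tested genes were called. With IFNg 3 rose (Tnfrsf11b, Tnfrsf12a and Tnfrsf22), against 37.9% of genes called. With TNFa 4 rose (Tnfsf9, Tnfrsf9, Tnfrsf12a and Tnfrsf25) and Tnfrsf19 fell, against 47.7%. Pairs moved more members: 7 rose with IFNb+IFNg, 8 with IFNb+TNFa and 7 with IFNg+TNFa, none fell, and the shares of all genes called were 65.4%, 38.5% and 69.3%. The shares called higher were 17%, 20% and 24.7% for IFNb, IFNg and TNFa and 34.3%, 21.6% and 36.0% for the pairs, and those called lower 13.5%, 17.9%, 23.0%, 31.1%, 16.9% and 33.3%. The 6 contrasts share the same vehicle libraries. In bulk RNA, fewer cells that express a gene and less of its RNA per cell cannot be told apart.

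**Figure D2:**
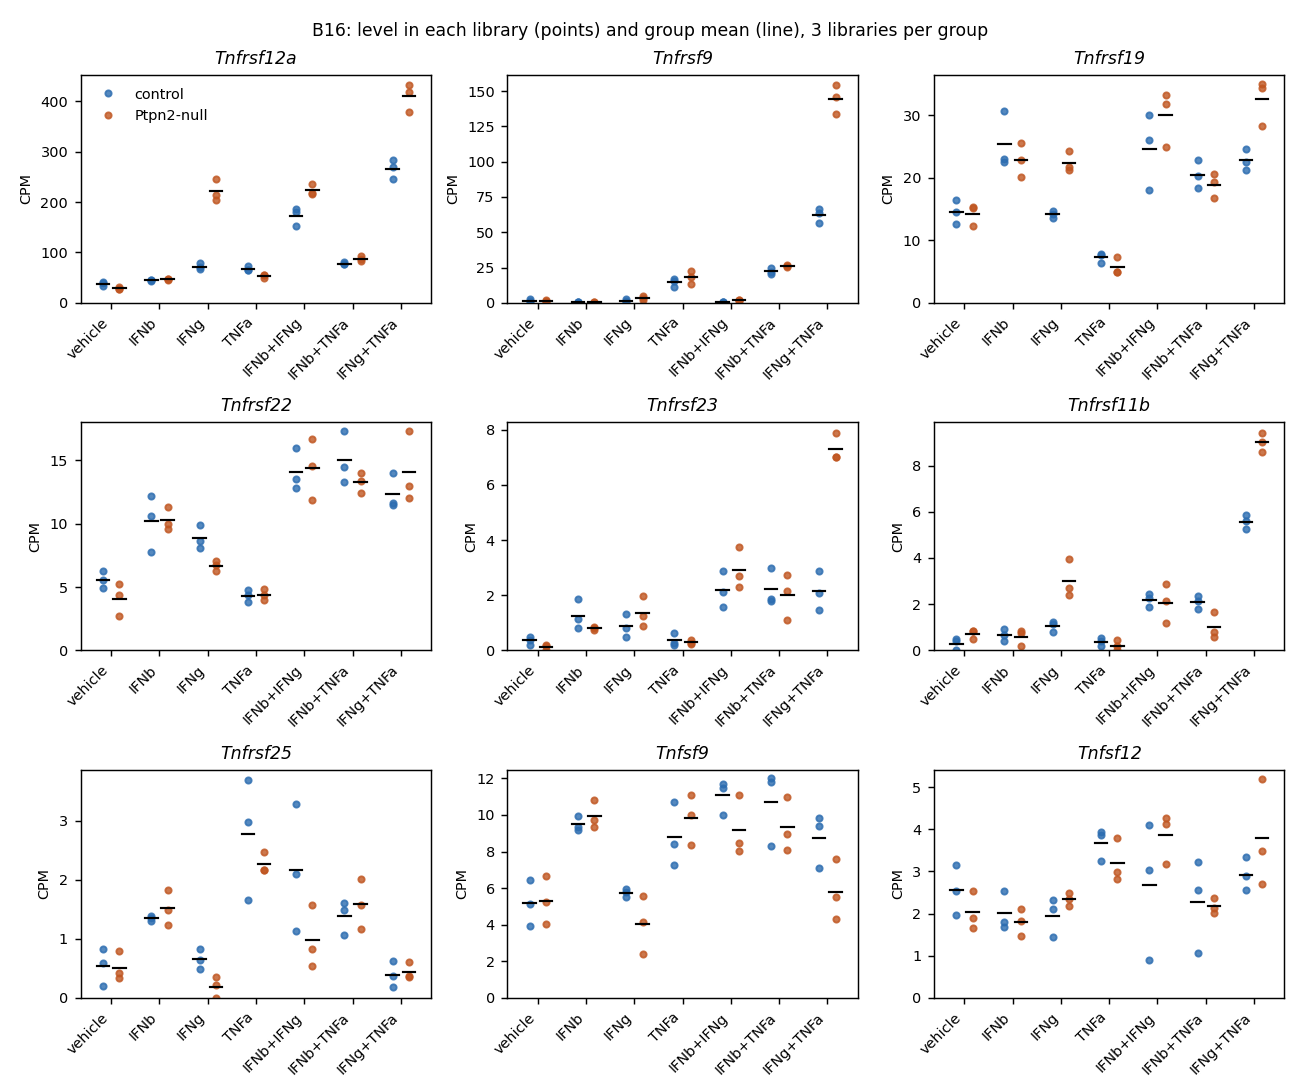
CPM of B16 members in each library (points) and the group mean (line), by treatment and genotype, with 3 libraries per group and linear axes from 0. Tnfrsf9 stands at 134 to 154 CPM in Ptpn2-null cells given IFNg+TNFa and under 5 CPM in every group without TNFa.

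Among the ligands, Tnfsf9 encodes the 4-1BB ligand, a co-stimulator of T cells, and Tnfsf12 encodes TWEAK, the ligand of Fn14. Tnfsf9 (chr17:57105325-57107757, plus strand, GRCm38) was 5.13, 6.43 and 3.94 CPM in the 3 control vehicle libraries and 9.96, 9.33 and 9.19 CPM under IFNb. The groups did not overlap, and the log2 fold change was 0.89 ± 0.22 (SE; adjusted p = 0.0012). Under TNFa it was 8.41, 10.7 and 7.25 CPM (0.79 ± 0.23; adjusted p = 0.0034), and under IFNg 5.80, 5.50 and 5.98 CPM (0.17 ± 0.24; adjusted p = 0.62). The pairs gave 1.12 ± 0.22 for IFNb+IFNg, 1.06 ± 0.22 for IFNb+TNFa and 0.79 ± 0.22 for IFNg+TNFa, all called. Without control TNFa replicate 2 the TNFa value was 0.60 and not called, and with the trend on transcript length removed it was 0.52 and not called. Tnfsf12 stayed between 1.81 and 3.85 CPM in the 14 group means and was called in no contrast. Its exons share 731 bases on the same strand with the read-through gene Tnfsfm13, and those of Tnfsf9 share 192 bases with Gm11110 on the other strand, so reads there may be split.

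Tnfrsf9 (chr4:150914562-150946102, plus strand) encodes 4-1BB, the receptor of the Tnfsf9 product. In control cells it was 1.58, 0.195 and 2.46 CPM under vehicle, 0.507, 0.596 and 0.375 CPM under IFNb, and 2.65, 0.647 and 1.44 CPM under IFNg. These 3 groups were all low and were not called apart. Under TNFa it was 11.4, 17.1 and 15.5 CPM, under IFNb+TNFa 25.0, 21.8 and 20.3 CPM, and under IFNg+TNFa 66.7, 56.4 and 63.6 CPM. Every library with TNFa lay above every library without it. The log2 fold changes from vehicle were 3.33 ± 0.31 (adjusted p = 4.0e-12), 3.92 ± 0.28 (2.8e-16) and 5.38 ± 0.23 (9.4e-26). The vehicle level rests on 24 counts: without control vehicle replicate 3 the values became 4.05, 4.64 and 6.10. Under IFNb+IFNg, with no TNFa, Tnfrsf9 was 0.820, 0.451 and 0.700 CPM and was not called.

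Tnfrsf12a (chr17:23675445-23677468, minus strand) encodes Fn14, a small receptor that signals through TRAF adaptors. Control libraries held 33.3, 38.8 and 41.1 CPM under vehicle, 45.6, 44.5 and 43.5 under IFNb, 66.8, 78.6 and 70.3 under IFNg, and 73.5, 64.5 and 66.1 under TNFa. All 3 cytokines gave levels above the vehicle range, but IFNb was not called (0.23 ± 0.10; adjusted p = 0.066). IFNg gave a log2 fold change of 0.93 ± 0.09 (adjusted p = 2.5e-12) and TNFa 0.84 ± 0.10 (adjusted p = 5.2e-10). Under pairs it was 186, 152 and 181 CPM with IFNb+IFNg, 80.7, 77.2 and 76.3 with IFNb+TNFa, and 245, 269 and 283 with IFNg+TNFa. These are log2 fold changes of 2.2 ± 0.09, 1.05 ± 0.09 and 2.81 ± 0.08 (adjusted p = 7.2e-29, 1.2e-13 and 8.1e-35), so the pairs with IFNg were the high ones. The summed melanocyte markers were 26769 to 27221 CPM in control cells under vehicle, 23249 to 23557 under IFNg, 22215 to 22417 under TNFa, 14577 to 15487 under IFNb+IFNg and 12485 to 13133 under IFNg+TNFa. The part of that lower marker level in the Tnfrsf9 and Tnfrsf12a results was not tested.

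Tnfrsf19 (TROY; chr14:60963875-61046490, minus strand), an orphan-type receptor known from hair follicle and nervous system, was the member that moved in opposite directions with different cytokines. It was 12.6, 16.4 and 14.6 CPM under vehicle and fell to 7.86, 7.72 and 6.42 CPM under TNFa (-0.99 ± 0.20; adjusted p = 4.1e-05). Under IFNb it rose to 30.6, 23.0 and 22.5 CPM (0.81 ± 0.15; adjusted p = 2.4e-05), and under IFNg it was 14.2, 14.7 and 13.6 CPM (-0.03 ± 0.16; adjusted p = 0.90). The TNFa libraries lay below and the IFNb libraries above all vehicle libraries. With IFNg added to TNFa it was 21.3, 22.5 and 24.6 CPM, above vehicle (0.65 ± 0.15; adjusted p = 0.00017). IFNb+IFNg gave 0.77 ± 0.15 and IFNb+TNFa 0.48 ± 0.16. The last lost its call without control IFNb+TNFa replicate 2 (0.39) or without control vehicle replicate 1 (0.39).

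Tnfrsf22 and Tnfrsf23 are mouse decoy receptors for TRAIL that lie next to Tnfrsf26 on chromosome 7 (chr7:143634806-143649661 and chr7:143665809-143685872, minus strand). They are close paralogs, so short reads could be split between them, and the exons of Tnfrsf23 share 164 bases with an antisense gene. Tnfrsf22 was 5.52, 6.23 and 4.93 CPM under vehicle, 10.6, 7.74 and 12.2 under IFNb and 9.94, 8.09 and 8.65 under IFNg. Both interferons raised it without overlap, by 0.89 ± 0.20 and 0.68 ± 0.20 (adjusted p = 0.00037 and 0.0047), while TNFa gave -0.34 ± 0.24 (adjusted p = 0.25). All 3 pairs were called, from 1.16 for IFNg+TNFa to 1.45 for IFNb+TNFa. Tnfrsf23 rose from 0.361 CPM under vehicle to between 2.14 and 2.21 CPM under the pairs, with log2 fold changes of 2.47 to 2.51. Under IFNb it was 1.26 CPM (1.74 ± 0.58; adjusted p = 0.019), a call that was lost without control IFNb replicate 1 (1.33) or control vehicle replicate 2 (1.47).

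Tnfrsf11b (chr15:54250619-54278484, minus strand) encodes osteoprotegerin, a secreted decoy receptor for the RANK ligand, whose gene had no count in B16. It was 0.394, 0 and 0.493 CPM under vehicle and 5.84, 5.27 and 5.60 CPM under IFNg+TNFa, without overlap (4.08 ± 0.43; adjusted p = 4.0e-12). IFNb+IFNg gave 2.75 ± 0.54 and IFNb+TNFa 2.66 ± 0.55, both called, while IFNb and TNFa alone were not. IFNg alone was 1.16, 0.809 and 1.24 CPM (1.70 ± 0.62; adjusted p = 0.024). That call was lost without control IFNg replicate 1 (1.63) or 3 (1.60), without control vehicle replicate 2 (1.2), and with DESeq2 (1.78). The vehicle level is 5 counts in all: without control vehicle replicate 3 the 4 called values became 4.66, 3.33, 3.25 and 2.29.

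Tnfrsf25 (death receptor 3; chr4:152115934-152120119, plus strand) carries a death domain and is the receptor of the TL1A ligand, Tnfsf15, which had no count in B16. It rose under TNFa, from 0.592, 0.195 and 0.821 CPM to 2.98, 3.68 and 1.66 CPM (2.29 ± 0.46; adjusted p = 5.4e-05). With both TNFa and IFNg it was 0.625, 0.364 and 0.181 CPM, within the range of vehicle apart from the lowest library (-0.51 ± 0.70; adjusted p = 0.53). IFNb+IFNg gave 3.28, 1.13 and 2.10 CPM (1.95 ± 0.49; adjusted p = 0.00048). IFNb+TNFa gave 1.33 ± 0.54 (adjusted p = 0.044). This last call was lost without control IFNb+TNFa replicate 1 (1.2) or 2 (1.29), without control vehicle replicate 1 (1.37) or 2 (0.96), with DESeq2 (1.35) and with no filter on low counts (1.30). Tnfrsf18 (GITR) was between 0.126 and 1.26 CPM in all 14 group means and was not tested.

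Whether a pair of cytokines gave more or less than its parts was tested as the departure of the pair's log2 fold change from the sum of both single ones, in control cells. For IFNg+TNFa 4 members departed upwards and 1 downwards, with 25.6% of all tested genes called. Tnfrsf12a exceeded the sum by 1.05 ± 0.12 (adjusted p = 7.4e-10), Tnfrsf19 by 1.67 ± 0.25 (adjusted p = 2.6e-07), Tnfrsf9 by 1.95 ± 0.55 (adjusted p = 0.0055) and Tnfrsf22 by 0.81 ± 0.30 (adjusted p = 0.035). Tnfrsf25 departed by -3.02 ± 0.83 (adjusted p = 0.0046). It passed the filter through groups where it was higher, and its highest group mean was 2.77 CPM, under TNFa alone. Its departures for IFNg+TNFa and IFNb+TNFa were thus partly set by the filter, and their p-values are no independent support. For IFNb+TNFa 3 departed upwards and 1 downwards, against 26.3% of genes: Tnfrsf9 by 2.13 ± 0.68, Tnfrsf22 by 0.90 ± 0.29, Tnfrsf19 by 0.66 ± 0.24 and Tnfrsf25 by -2.21 ± 0.65. For IFNb+IFNg only Tnfrsf12a did, by 1.03 ± 0.13 (adjusted p = 4.1e-09), against 46.8% of genes. Departures upwards made up 10.5%, 14.8% and 20.9% of genes for the 3 pairs in this order, and downwards 15.1%, 11.5% and 25.9%. The tests share the vehicle and single-cytokine libraries.

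Several departures depended on 1 library. Both Tnfrsf9 departures lost their call without control vehicle replicate 3, at 1.41 for IFNb+TNFa and 1.23 for IFNg+TNFa, and without control IFNg replicate 1 the latter was 2.62. The Tnfrsf19 departure for IFNb+TNFa was lost without control IFNb replicate 2 (0.63) or 3 (0.61), control IFNb+TNFa replicate 2 (0.60), control TNFa replicate 2 (0.72) or 3 (0.61), or control vehicle replicate 2 (0.61) or 3 (0.66). The Tnfrsf22 departure for IFNg+TNFa was lost without control IFNg replicate 2 (0.77), control IFNg+TNFa replicate 2 (0.73), control TNFa replicate 1 (0.74) or 3 (0.81), control vehicle replicate 1 (0.81) or 2 (0.72), and with DESeq2 (0.84). For IFNb+TNFa it was lost without control vehicle replicate 2 (0.84). The departures of Tnfrsf12a, and that of Tnfrsf19 for IFNg+TNFa, kept their calls in every alternative run. That of Tnfrsf12a for IFNb+IFNg was 0.65 with the length trend removed, however. Both Tnfrsf25 departures kept their calls in the 17 alternatives that gave a value, against 18 that did so for Tnfrsf9. Not every alternative could thus test Tnfrsf25.

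**Figure D3:**
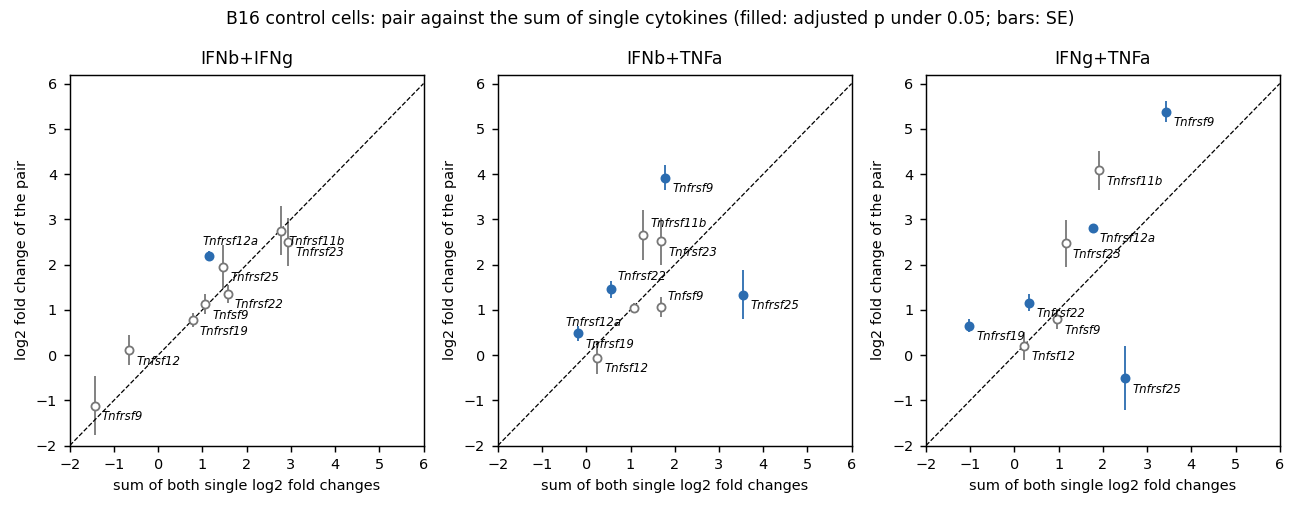
Log2 fold change of each cytokine pair (vertical axis, bars show SE) against the sum of both single log2 fold changes (horizontal axis) in control B16 cells, with filled points for called departures and the dashed line where pair and sum are equal. Under IFNg+TNFa the filled points of Tnfrsf12a, Tnfrsf19, Tnfrsf22 and Tnfrsf9 lie above the line and that of Tnfrsf25 below it.

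Ptpn2-null and control B16 cells were compared under each treatment. Under IFNg 4 members were higher in Ptpn2-null cells and none lower, with 34.9% of all tested genes called. Under IFNg+TNFa 5 were higher and 1 lower, against 41.0%. Under IFNb+IFNg 1 was higher and 1 lower, against 38.4%. Under vehicle and under TNFa only Tnfrsf12a was called, lower, against 3.07% and 0.938% of genes. Under IFNb and under IFNb+TNFa edgeR called 0 members, against 0.554% and 0.597% of genes. There 0 and 1 members had an unadjusted p under 0.05, and DESeq2 called 0 in both. The shares called higher were 17.7% under IFNg, 20.3% under IFNg+TNFa, 19.2% under IFNb+IFNg, 1.91% under vehicle and 0.264% under TNFa, and those called lower 17.2%, 20.8%, 19.2%, 1.16% and 0.674%.

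Tnfrsf12a differed between genotypes in 5 of 7 treatments. Under IFNg the Ptpn2-null libraries held 245, 205 and 215 CPM against 66.8, 78.6 and 70.3 in control, far outside each other's range (1.62 ± 0.08; adjusted p = 2.0e-24). Ptpn2-null cells given IFNg alone thus held nearly as much as control cells under IFNg+TNFa, a comparison that was not tested. Under IFNg+TNFa they held 433, 378 and 419 CPM against 245, 269 and 283 (0.63 ± 0.07; adjusted p = 1.4e-11), and under IFNb+IFNg 217, 218 and 235 against 186, 152 and 181 (0.36 ± 0.07; adjusted p = 4.4e-05). Under vehicle and TNFa the difference was in the other direction: 32.1, 27.0 and 26.8 CPM under vehicle against 33.3, 38.8 and 41.1 (-0.40 ± 0.11; adjusted p = 0.024), and 55.2, 48.4 and 54.7 under TNFa against 73.5, 64.5 and 66.1 (-0.37 ± 0.09; adjusted p = 0.034). The vehicle call was lost without control vehicle replicate 2 (-0.38) or 3 (-0.32) or Ptpn2-null vehicle replicate 2 (-0.36) or 3 (-0.35). The TNFa call was lost without control TNFa replicate 1 (-0.31), 2 (-0.40) or 3 (-0.37) or Ptpn2-null TNFa replicate 1 (-0.40) or 2 (-0.29). It was also lost with only the compared groups in the fit (-0.36). The vehicle and TNFa calls were both lost with the length trend removed (-0.31 and -0.28).

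Tnfrsf9 was 154, 134 and 146 CPM in Ptpn2-null cells under IFNg+TNFa against 66.7, 56.4 and 63.6 in control, without overlap (1.22 ± 0.11; adjusted p = 5.9e-13). Under TNFa alone the groups overlapped, at 22.6, 13.1 and 18.4 against 11.4, 17.1 and 15.5 CPM (0.25 ± 0.19; adjusted p = 0.59). Under IFNg alone Tnfrsf9 was 4.81, 1.86 and 3.78 against 2.65, 0.647 and 1.44 CPM, which overlap (1.12 ± 0.41; adjusted p = 0.029). This call was lost without control IFNg replicate 2 (0.72) or 3 (1.08) or Ptpn2-null IFNg replicate 1 (0.86) or 3 (1.05), and without control IFNg replicate 1 the value was 1.78. Tnfrsf11b was higher in Ptpn2-null cells under IFNg, at 2.40, 2.69 and 3.96 against 1.16, 0.809 and 1.24 CPM (1.52 ± 0.37; adjusted p = 0.00093). It was also higher under IFNg+TNFa, at 8.60, 9.41 and 9.01 against 5.84, 5.27 and 5.60 CPM (0.69 ± 0.21; adjusted p = 0.0068), where DESeq2 gave 0.70 and did not call it. Neither pair of groups overlapped. The summed melanocyte markers were also lower in Ptpn2-null than in control cells here, at 15597 to 15875 against 23249 to 23557 CPM under IFNg and 6811 to 6983 against 12485 to 13133 CPM under IFNg+TNFa, while under vehicle they were 28439 to 28534 against 26769 to 27221 CPM. Their part in the genotype differences of these genes and of Tnfrsf12a was not tested.

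The decoy gene Tnfrsf23 was 7.88, 7.01 and 6.99 CPM in Ptpn2-null cells under IFNg+TNFa against 2.08, 1.45 and 2.89 in control (1.75 ± 0.27; adjusted p = 4.4e-07). Its neighbour Tnfrsf22 was 12, 13 and 17.3 against 11.5, 14.0 and 11.6 CPM there and was not called (0.19 ± 0.16; adjusted p = 0.36). Tnfrsf19 was higher under IFNg, at 24.3, 21.7 and 21.3 against 14.2, 14.7 and 13.6 CPM (0.65 ± 0.15; adjusted p = 0.00054), and under IFNg+TNFa (0.51 ± 0.13; adjusted p = 0.0015). The members called higher in Ptpn2-null B16 cells were thus receptors, but only 2 ligands, Tnfsf9 and Tnfsf12, were tested. Receptors were also called lower, among them Tnfrsf12a under vehicle and TNFa. In human lines ligands such as TNFSF13B were among the members higher in Ptpn2-null cells. The only ligand called, Tnfsf9, was lower under IFNg+TNFa, at 4.30, 7.61 and 5.52 against 7.09, 9.82 and 9.39 CPM (-0.62 ± 0.22; adjusted p = 0.019). Those groups overlap, and the call was lost without control IFNg+TNFa replicate 2 (-0.53) or 3 (-0.56), without Ptpn2-null IFNg+TNFa replicate 1 (-0.42) or 3 (-0.58), when the 5 deviating libraries were dropped (-0.42) and with only the compared groups in the fit (-0.61). Tnfrsf25 was lower under IFNb+IFNg (-1.17 ± 0.44; adjusted p = 0.029), with overlapping groups. That call was lost without control IFNb+IFNg replicate 1 (-0.71) or 3 (-1.2), Ptpn2-null IFNb+IFNg replicate 1 (-0.82) or 2 (-1.05), with DESeq2 (-1.14), with no filter on low counts (-1.12) and with the length trend removed (-1.04), and was -2.21 when the 5 deviating libraries were dropped.

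**Figure D4:**
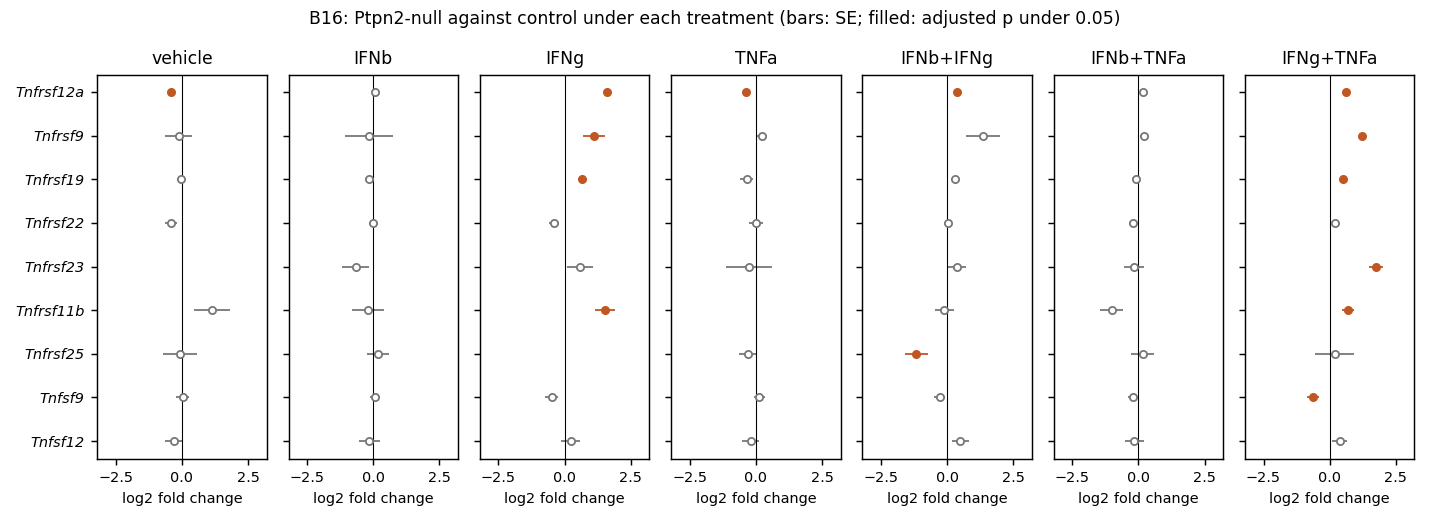
Log2 fold change of Ptpn2-null against control B16 cells for each tested member under each treatment, with bars for SE and filled points for adjusted p under 0.05. Points are left out where a group holds 3 counts or fewer. The filled points to the right of 0 are all in panels with IFNg.

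The genotype difference under a cytokine was then tested against that under vehicle (interaction). With IFNg 2 members were called, both upwards, against 21.5% of all tested genes: Tnfrsf12a (2.02 ± 0.13; adjusted p = 5.6e-18) and Tnfrsf19 (0.68 ± 0.22; adjusted p = 0.021). With IFNg+TNFa 3 were called, against 26.2%: Tnfrsf12a (1.02 ± 0.12; adjusted p = 2.8e-09), Tnfrsf19 (0.54 ± 0.21; adjusted p = 0.049) and Tnfrsf23, whose size is not given because Ptpn2-null vehicle cells held only 2 of its counts. Tnfrsf9 was not called there (1.35 ± 0.54; adjusted p = 0.059). Tnfrsf12a was the single member called with IFNb+IFNg (0.76 ± 0.13; adjusted p = 1.1e-05; 15.4% of genes) and with IFNb+TNFa (0.56 ± 0.13; adjusted p = 0.024; 0.913% of genes). edgeR called 0 members with IFNb and 0 with TNFa, where 0.512% and 0.0341% of genes were called. In these 1 and 0 members had an unadjusted p under 0.05, and DESeq2 called 0. The shares called upwards were 9.08% with IFNg, 11% with IFNg+TNFa, 6.69% with IFNb+IFNg and 0.443% with IFNb+TNFa.

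Calls of Tnfrsf12a with IFNg, IFNb+IFNg and IFNg+TNFa held in every alternative. With IFNb+TNFa the Tnfrsf12a interaction was lost without control IFNb+TNFa replicate 3 (0.56), control vehicle replicate 2 (0.55) or 3 (0.49), Ptpn2-null IFNb+TNFa replicate 1 (0.53), Ptpn2-null vehicle replicate 2 (0.53) or 3 (0.52), and with the length trend removed (0.45). For Tnfrsf19 the IFNg interaction was lost without control vehicle replicate 2 (0.59), Ptpn2-null IFNg replicate 1 (0.64) or Ptpn2-null vehicle replicate 1 (0.57). Its IFNg+TNFa interaction was lost with DESeq2 (0.56), without control IFNg+TNFa replicate 1 (0.52) or 2 (0.53), control vehicle replicate 2 (0.46) or 3 (0.54), Ptpn2-null IFNg+TNFa replicate 2 (0.51) or 3 (0.52), or Ptpn2-null vehicle replicate 1 (0.44) or 2 (0.59).

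The rest of the pathway was followed through 47 genes: ligands and receptors with other symbols, adaptors and regulators, and NF-kB factors with their kinases. In B16 35 were tested. In control cells 4 rose and 8 fell with IFNb, 12 and 10 with IFNg, 13 and 5 with TNFa, 14 and 10 with IFNb+IFNg, 20 and 2 with IFNb+TNFa, and 24 and 6 with IFNg+TNFa. In the same order 30.5%, 37.9%, 47.7%, 65.4%, 38.5% and 69.3% of all tested genes were called. The median log2 fold changes over the 35 genes were -0.03, 0.08, 0.10, 0.13, 0.31 and 0.71, beside 0.02, 0.00, 0.05, 0.04, 0.03 and 0.03 over all tested genes. The NF-kB subunit gene Relb moved in opposite directions, by -1.45 ± 0.16 with IFNb, -1.70 ± 0.16 with IFNg and 2.09 ± 0.11 with TNFa. The inhibitor gene Nfkbie rose with TNFa (1.99 ± 0.09) and IFNb+TNFa (2.10 ± 0.09), and Ngfr, the nerve growth factor receptor, went from 1 count in the vehicle libraries to 24.6 CPM under IFNg+TNFa. Rel fell with TNFa (-1.49 ± 0.32) and with IFNb+IFNg (-1.80 ± 0.34).

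In Ptpn2-null against control B16 cells 15 pathway genes were higher and 3 lower under IFNg, 17 and 4 under IFNb+IFNg, and 20 and 2 under IFNg+TNFa, beside 34.9%, 38.4% and 41.0% of all tested genes called. Under vehicle 1 was called, Traf4, lower (-0.22 ± 0.05), beside 3.07% of genes. Under IFNg+TNFa the death receptor gene Fas was higher by 3.62 ± 0.30, Tnf by 2.36 ± 0.44 and Ngfr by 2.26 ± 0.11, while Traf4 (-1.21 ± 0.06) and Traf3 (-0.22 ± 0.07) were lower. Under IFNg the called differences included Ngfr (3.29 ± 0.39) and Relb (1.18 ± 0.18), and Traf4 was lower at -0.85 ± 0.06. Fas and Ltbr were called higher there too, and their sizes are not given.

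The human lines were given IFNg only, and each line has its own table, so differences between lines were not tested. In control cells of A549 4 of 14 tested members rose and 4 fell, with 47.6% of 13172 tested genes called. In HT29 7 of 12 rose and 1 fell, with 59.4% of 12555 called, and in MelJuSo 2 of 8 rose and none fell, with 11.5% of 12271 called. In A375 the mean IFNg effect over both guides, which does not use the genotype labels within a treatment, had 5 of 17 members higher and 7 lower, with 72.2% of 13410 genes called. The shares called higher were 23.9% in A549, 30.8% in HT29, 6.32% in MelJuSo and 36.6% in A375, and those called lower 23.7%, 28.7%, 5.18% and 35.6%. The limit given for B16 holds here and below. A member that passes the filter only through a group where it is high has to differ between groups. The counts therefore describe the members and are not shares to set against those of all genes.

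**Figure D5:**
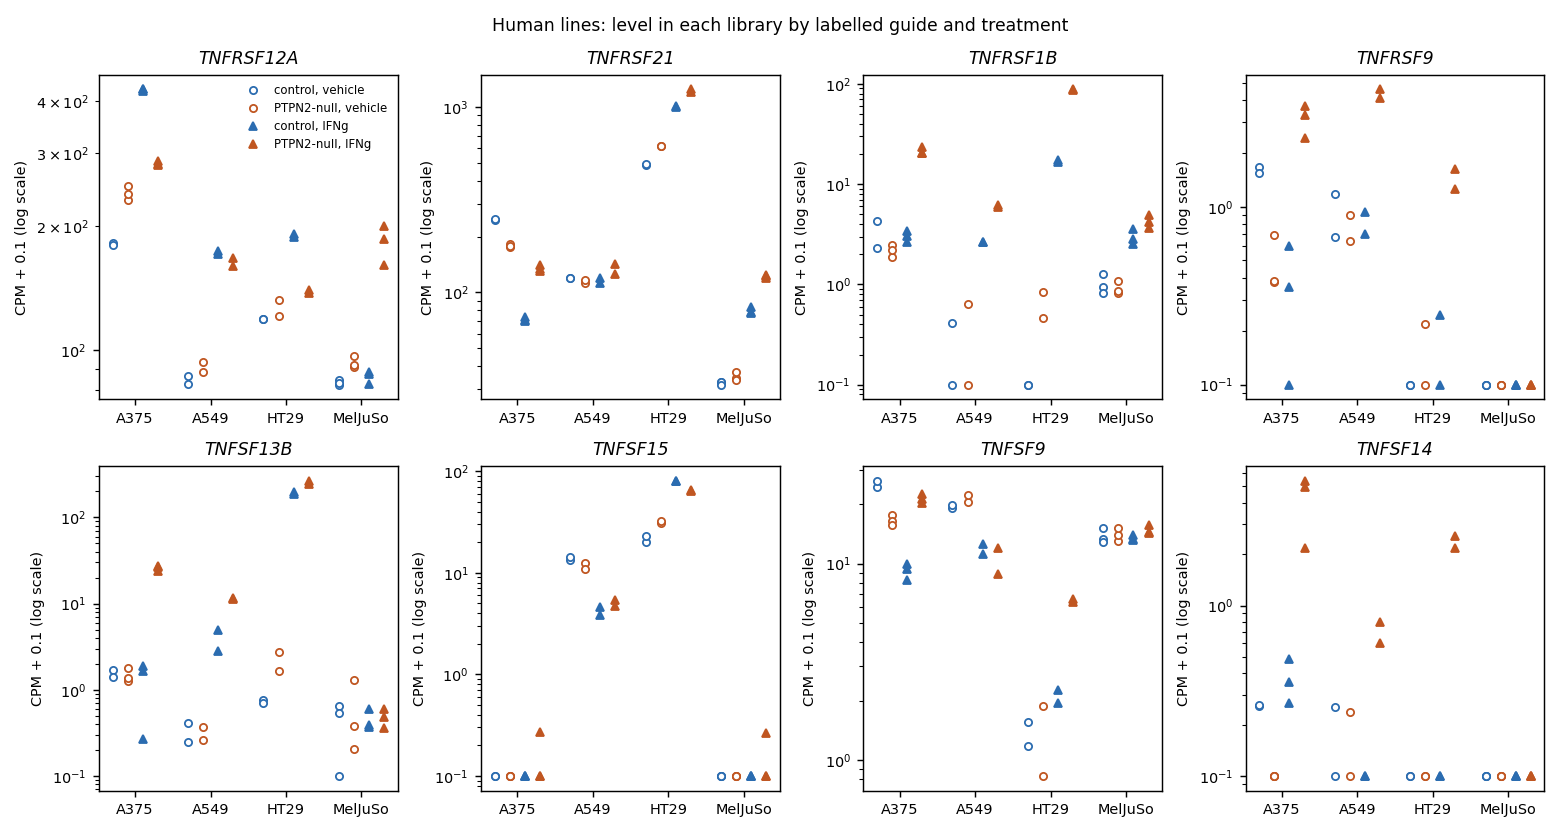
CPM plus 0.1 on a log axis for members in each library of the human lines, by labelled guide and treatment. TNFRSF1B and TNFSF13B lie highest in the libraries labelled Ptpn2-null and given IFNg in A375, A549 and HT29.

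TNFRSF1B encodes TNF receptor 2, which lacks a death domain and signals through TRAF2. In HT29 control cells it had 0 counts in both vehicle libraries and was 16.4 and 17.5 CPM under IFNg, at least 89.3-fold higher when the floor is 3 counts over the group. Ptpn2-null HT29 cells had 0.733 and 0.361 CPM under vehicle, at least 2.95-fold above control on the same floor, and 88.2 and 87.8 CPM under IFNg (2.37 ± 0.10 above control; adjusted p = 5.0e-28). In A549 2 counts under vehicle became 35 under IFNg, a ratio of 17 with a 95% exact binomial interval of 4.36 to 146 that covers counting error only. There Ptpn2-null libraries held 6.13 and 5.88 CPM under IFNg against 2.52 and 2.56 (1.24 ± 0.30; adjusted p = 0.00034), a call that DESeq2 did not make (1.24). MelJuSo control cells went from 1.16, 0.832 and 0.718 CPM to 3.48, 2.74 and 2.44 CPM (1.63 ± 0.35; adjusted p = 0.00022). In A375 under IFNg labelled Ptpn2-null libraries had 23.3, 20.5 and 20.2 CPM and those labelled control 3.31, 2.94 and 2.52 (2.84 ± 0.17; adjusted p = 3.5e-38). Vehicle libraries labelled control held 2.21 and 4.18 CPM, a range that holds the labelled control libraries given IFNg. Those labelled Ptpn2-null held 1.77, 2.38 and 2.11 CPM under vehicle, all lower than labelled control under IFNg. The vehicle libraries go against their labels, so a change with IFNg within a label cannot be read. Higher TNFRSF1B with IFNg was thus seen in control cells of A549, HT29 and MelJuSo, and in A375 over both labelled guides (1.61 ± 0.18). The highest A375 libraries were those labelled Ptpn2-null and given IFNg. In B16 Tnfrsf1b was under 1 CPM in every group.

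TNFSF13B encodes BAFF, a survival factor of B cells. In HT29 it rose from 0.663 and 0.606 CPM to 187 and 195 CPM with IFNg (8.20 ± 0.15; adjusted p = 5.4e-48), where the vehicle level is 10 counts. Ptpn2-null HT29 cells were higher, at 2.62 and 1.56 CPM under vehicle (1.72 ± 0.46; adjusted p = 0.0038) and 267 and 244 CPM under IFNg (0.42 ± 0.05; adjusted p = 1.4e-09). The vehicle call was lost without Ptpn2-null vehicle replicate 1 (1.28). In A549 control cells 3 counts under vehicle became 53 under IFNg, a ratio of 17.1 (95% interval 5.55 to 85.7). Ptpn2-null A549 cells held 11.5 and 11.3 CPM under IFNg against 4.90 and 2.71 (1.57 ± 0.23; adjusted p = 5.2e-10). In A375 under IFNg labelled Ptpn2-null libraries had 26.4, 23.9 and 27.5 CPM against 1.78, 1.53 and 0.168 in labelled control (4.36 ± 0.20; adjusted p = 1.8e-53). In MelJuSo its 4 group means were under 1 CPM. The related APRIL gene TNFSF13 was higher in Ptpn2-null HT29 cells under IFNg, at 9.74 and 10.5 against 4.79 and 4.27 CPM (1.15 ± 0.22; adjusted p = 2.5e-05), and rose with IFNg in A375 over both guides (1.31 ± 0.26), while in A549 it was not called.

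TNFSF15 (TL1A) and its receptor gene TNFRSF25 were both measured above 1 CPM in HT29. There TNFSF15 rose with IFNg from 20 and 22.7 to 79.2 and 80.5 CPM (1.90 ± 0.09; adjusted p = 6.8e-27), and TNFRSF25 from 3.45 and 2.18 to 12.8 and 14.8 CPM (2.30 ± 0.23; adjusted p = 2.7e-13). In A549 TNFSF15 went the other way, from 13.2 and 14.2 to 3.78 and 4.51 CPM (-1.72 ± 0.22; adjusted p = 3.0e-14), with TNFRSF25 under 1 CPM. In Ptpn2-null HT29 cells TNFSF15 was higher under vehicle, at 30.6 and 32.5 CPM (0.56 ± 0.10; adjusted p = 3.5e-05), and lower under IFNg, at 65.4 and 64.3 CPM (-0.30 ± 0.07; adjusted p = 0.00070), where DESeq2 gave -0.28 and did not call it. In A375 TNFRSF25 was 12.1 to 15.3 CPM in the 4 group means. It was called between labelled genotypes under IFNg (-0.31 ± 0.13; adjusted p = 0.044), with overlapping groups. That call was lost without control IFNg replicate 2 (-0.16), without Ptpn2-null IFNg replicate 1 (-0.30) or 3 (-0.18), with DESeq2 (-0.29) and with only the compared groups in the fit (-0.30).

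TNFSF9, the 4-1BB ligand gene, did not follow one direction. With IFNg it fell in A549 control cells from 19.1 and 19.7 to 11.1 and 12.5 CPM (-0.72 ± 0.15; adjusted p = 1.3e-05), and in A375 over both guides (-0.55 ± 0.09). In MelJuSo it was 15.0, 13.3 and 12.8 against 13.8, 13.1 and 13.2 CPM and was not called. In HT29 under IFNg Ptpn2-null cells held 6.26 and 6.48 CPM against 2.18 and 1.85 in control (1.65 ± 0.31; adjusted p = 1.6e-05). In A375 under IFNg labelled Ptpn2-null libraries had 21.3, 20.3 and 22.4 against 8.14, 9.85 and 9.25 CPM (1.24 ± 0.13; adjusted p = 1.5e-17). Its receptor gene TNFRSF9 was low in these lines. It was 4.01 and 4.48 CPM in Ptpn2-null A549 cells under IFNg against 0.840 and 0.602 in control (2.51 ± 0.44; adjusted p = 1.4e-07). In A549 TNFRSF9 reached 1 CPM only in Ptpn2-null cells given IFNg and passed the filter through them. Its p-values there are no independent support. In HT29 TNFRSF9 was 1.16 and 1.54 CPM in Ptpn2-null cells under IFNg. It was under 0.1 CPM in the other 3 HT29 group means and did not pass the filter. In A375 under IFNg it was 2.35, 3.60 and 3.18 CPM in labelled Ptpn2-null against 0, 0.256 and 0.505 in labelled control (3.61 ± 0.51; adjusted p = 2.4e-10). The last value was 2.99 without control IFNg replicate 1 and 4.39 without control IFNg replicate 3.

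TNFSF14 (LIGHT) reached 1 CPM only in libraries labelled Ptpn2-null and given IFNg. In HT29 it was 2.09 and 2.47 CPM there, with 0 counts in the other 6 libraries, at least 10.4-fold above control under IFNg on the floor of 3 counts over the group. In A375 it was 4.87, 5.31 and 2.08 CPM against 0.254, 0.384 and 0.168 in labelled control under IFNg (3.73 ± 0.47; adjusted p = 1.6e-12). In both lines TNFSF14 passed the filter only through these libraries labelled Ptpn2-null, so its p-values are no independent support. Among the remaining ligands, TNFSF18 (the GITR ligand) fell with IFNg in A375 over both guides (-2.61 ± 0.26). Libraries labelled control held 1.53, 2.05 and 1.85 CPM under IFNg. Those so labelled under vehicle, where the labels are in doubt, held 3.47 and 4.02 CPM. TNFSF12 was 5.13 to 6.88 CPM in the 4 A549 group means, and TNFSF4 (OX40 ligand) 1.78 to 2.95 CPM in those of A375, and neither was called. In MelJuSo TNFSF4 was 0.517 to 1.22 CPM and did not pass the filter.

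TNFRSF12A was among the abundant receptors of every line, and the direction of its genotype difference under IFNg was not the same in each. Differences between lines were not tested. With IFNg it rose in A549 from 82.5 and 86.3 to 171 and 174 CPM (1.03 ± 0.06; adjusted p = 2.1e-72) and in HT29 from 119 and 119 to 188 and 191 CPM (0.67 ± 0.05; adjusted p = 1.5e-16). In MelJuSo control cells it was 84.4, 82.3 and 83.3 CPM under vehicle and 87.3, 82.7 and 88.4 under IFNg (0.05 ± 0.06; adjusted p = 0.72). Ptpn2-null MelJuSo cells held 161, 200 and 186 CPM under IFNg, above every control library (1.08 ± 0.05; adjusted p = 2.1e-32). The summed melanocyte markers of MelJuSo were 3611 to 3890 CPM there against 4783 to 4987 CPM in control, and their part in this difference was not tested. In A549 Ptpn2-null cells held 160 and 167 CPM under IFNg (-0.08 ± 0.05; adjusted p = 0.22). In HT29 they were lower than control, at 140 and 137 CPM (-0.45 ± 0.05; adjusted p = 3.5e-10). In A375 a change with IFNg within a label cannot be read, because the vehicle libraries go against their labels. Libraries labelled control held 182 and 180 CPM under vehicle and 423, 428 and 428 CPM under IFNg. Those labelled Ptpn2-null held 231, 250 and 239 CPM under vehicle and 280, 287 and 282 CPM under IFNg. Under IFNg the labelled Ptpn2-null libraries were thus lower in A375 (-0.59 ± 0.03; adjusted p = 9.9e-44), and under vehicle higher (0.41 ± 0.04; adjusted p = 1.4e-16). B16 and MelJuSo were the lines where Ptpn2-null cells held more of the transcript under IFNg.

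TNFRSF21, death receptor 6, was the member with the highest CPM in HT29. It went from 486 and 492 to 1005 and 1018 CPM with IFNg there (1.05 ± 0.04; adjusted p = 1.1e-33) and was higher in Ptpn2-null cells by 0.33 ± 0.04 under vehicle and 0.27 ± 0.03 under IFNg. In MelJuSo it rose from 32.7, 32.6 and 31.7 to 78.4, 83.2 and 77.7 CPM (1.30 ± 0.07; adjusted p = 4.5e-35), and Ptpn2-null cells held 124, 119 and 122 CPM (0.61 ± 0.05; adjusted p = 2.6e-19). In A549 control cells it was 119 and 120 CPM under vehicle and 112 and 119 under IFNg (-0.06 ± 0.06; adjusted p = 0.43). Ptpn2-null A549 cells held 143 and 125 CPM under IFNg (0.23 ± 0.05; adjusted p = 0.00035). That call was lost without control IFNg replicate 1 (0.18) or Ptpn2-null IFNg replicate 1 (0.12), and with DESeq2 (0.22). In A375 it fell over both guides (-1.10 ± 0.03). Under vehicle it was 246 and 250 CPM in labelled control and 175, 183 and 178 CPM in labelled Ptpn2-null. Under IFNg it was 73.9, 69.6 and 70.8 CPM in labelled control and 141, 133 and 130 CPM in labelled Ptpn2-null. The mouse gene had no count in B16.

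TNFRSF10A, a TRAIL receptor gene whose product carries a death domain, rose with IFNg in HT29 from 18.3 and 17.8 to 31.5 and 35.0 CPM (0.88 ± 0.12; adjusted p = 1.9e-09) and in A549 from 19.8 and 18.6 to 25.1 and 26.9 CPM (0.43 ± 0.13; adjusted p = 0.0019), where DESeq2 did not call it (0.43). It fell slightly in A375 over both guides (-0.23 ± 0.07). The decoy gene TNFRSF10D fell in A549 from 53.6 and 52.3 to 16.5 and 19.1 CPM (-1.57 ± 0.11; adjusted p = 1.2e-45) and in HT29 from 15.6 and 13.1 to 6.09 and 5.98 CPM (-1.24 ± 0.19; adjusted p = 5.7e-08). Ptpn2-null cells under IFNg held 16.4 and 18.6 CPM of TNFRSF10D in A549 and 5.22 and 4.63 CPM in HT29, and neither was called against control. TNFRSF10C, another decoy, was 2.33 to 3.52 CPM in A549, 1.83 to 2.38 CPM in MelJuSo and 4.39 to 5.14 CPM in A375, and was called in none.

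TNFRSF11A (RANK) fell with IFNg in A549 from 11.6 and 10.4 to 5.32 and 8.43 CPM (-0.69 ± 0.20; adjusted p = 0.0023), a call lost without control IFNg replicate 1 (-0.38) and with DESeq2 (-0.68), and at -1.04 without control IFNg replicate 2. In MelJuSo under IFNg Ptpn2-null cells held 6.95, 7.68 and 7.94 CPM of it against 4.5, 3.11 and 5.43 (0.80 ± 0.20; adjusted p = 0.00031). TNFRSF19 was 100, 88.0 and 90.8 CPM in control MelJuSo cells under IFNg and 121, 107 and 129 CPM in Ptpn2-null ones, without overlap (0.35 ± 0.05; adjusted p = 2.2e-08). In A375 under IFNg TNFRSF19 was 5.37, 5.12 and 5.40 CPM in labelled Ptpn2-null against 1.65, 1.41 and 1.85 in labelled control (1.70 ± 0.27; adjusted p = 1.7e-08). TNFRSF8 (CD30) was measured above 1 CPM only in A375, where under IFNg it was 5.71, 2.84 and 4.43 against 10.2, 8.95 and 10.1 CPM (-1.14 ± 0.19; adjusted p = 3.6e-08). TNFRSF11B fell with IFNg in A375 over both guides (-0.53 ± 0.11). Libraries labelled control held 7.12, 6.52 and 7.23 CPM under IFNg. Those so labelled under vehicle, where the labels are in doubt, held 13.4 and 12.7 CPM.

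By count, Ptpn2-null cells under IFNg had 4 of 14 members higher in A549 and none lower (24.3% of genes called), 6 of 12 higher and 2 lower in HT29 (41.9%), and 4 of 8 higher and none lower in MelJuSo (51.2%). The HT29 count includes TNFSF14, which passed the filter only through Ptpn2-null cells given IFNg and so had to differ. The same limit holds for TNFRSF9 in the A549 count and TNFSF14 in the A375 count. These too reached 1 CPM only in libraries labelled Ptpn2-null and given IFNg. In A375 as labelled 9 of 17 were higher and 4 lower (50.8%). The shares called higher were 13%, 21.3%, 25.5% and 25.8% in these lines and those called lower 11.3%, 20.5%, 25.7% and 25.0%. Under vehicle HT29 had 4 higher (21.1%) and A375 as labelled 2 higher and 4 lower (21.1%), where 12.4% of genes were called higher in each line and 8.67% and 8.73% lower. Under vehicle edgeR called 0 members in A549 (2.95% of genes) and 0 in MelJuSo (1.64%). There 0 and 1 members had an unadjusted p under 0.05, and DESeq2 called 0. The A375 vehicle call of TNFRSF11A (-1.09 ± 0.41; adjusted p = 0.043) was lost without control vehicle replicate 3 (-0.54) or Ptpn2-null vehicle replicate 1 (-0.85), 2 (-1.23) or 3 (-1.23) and with no filter on low counts (-1.08). That of TNFRSF9 (-1.94 ± 0.60; adjusted p = 0.011) was lost without control vehicle replicate 2 (-1.88) or 3 (-2.0). Under IFNg the call of TNFRSF11A between labelled A375 genotypes (0.93 ± 0.35; adjusted p = 0.018) was lost without control IFNg replicate 1 (0.65) or 2 (0.85), Ptpn2-null IFNg replicate 2 (0.83) or 3 (0.84), and with DESeq2 (0.91). The other A375 vehicle calls were TNFRSF12A, given above, TNFSF18 (1.11 ± 0.24), TNFRSF21 (-0.47 ± 0.04) and TNFSF9 (-0.62 ± 0.12).

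The interaction of genotype with IFNg was called for 2 members in A549 (11.3% of genes), 5 in HT29 (19.1%) and 4 in MelJuSo (35.5%). Upward calls made up 6.36%, 7.38% and 16.6% of genes, and downward ones 4.92%, 11.7% and 18.8%. In MelJuSo it was upwards for TNFRSF12A (0.93 ± 0.08; adjusted p = 1.7e-17), TNFRSF21 (0.49 ± 0.09; adjusted p = 1.1e-05), TNFRSF19 (0.38 ± 0.08; adjusted p = 4.0e-05) and TNFRSF11A (0.74 ± 0.29; adjusted p = 0.035). In HT29 it was downwards for TNFSF15 (-0.85 ± 0.13; adjusted p = 3.5e-07) and TNFRSF12A (-0.54 ± 0.08; adjusted p = 1.6e-07), so that TNFRSF12A differed by genotype in opposite directions in these lines. The other HT29 calls, TNFSF13 (1.06 ± 0.33), TNFSF9 (1.69 ± 0.58) and TNFSF13B (-1.30 ± 0.47), and both A549 calls, TNFRSF9 (2.82 ± 0.84) and TNFRSF21 (0.29 ± 0.08), each lost their call without single libraries. The MelJuSo TNFRSF11A call was lost without control IFNg replicate 2 (0.53), control vehicle replicate 1 (0.71) or 2 (0.65), Ptpn2-null IFNg replicate 2 (0.72) or 3 (0.70), Ptpn2-null vehicle replicate 1 (0.66) or 2 (0.76), and with DESeq2 (0.75). In HT29 the TNFSF13 call was lost without control IFNg replicate 2 (0.98), control vehicle replicate 2 (0.90) or Ptpn2-null vehicle replicate 2 (0.83). The TNFSF9 call was lost without control IFNg replicate 1 (1.84) or 2 (1.58), control vehicle replicate 1 (1.47) or 2 (1.89), or Ptpn2-null vehicle replicate 1 (1.15). The TNFSF13B call was lost without control IFNg replicate 1 (-1.30) or 2 (-1.27), control vehicle replicate 1 (-1.37) or 2 (-1.24), Ptpn2-null IFNg replicate 2 (-1.21) or Ptpn2-null vehicle replicate 1 (-0.86). These 3 were also lost with DESeq2 (1.10, 1.72 and -1.30). In A549 the TNFRSF9 call was lost without control IFNg replicate 2 (2.61), control vehicle replicate 1 (2.32) or Ptpn2-null vehicle replicate 1 (2.55). TNFRSF9 passed the filter there only through Ptpn2-null cells given IFNg, so its call is no independent support. That of TNFRSF21 was lost without control IFNg replicate 1 (0.24), Ptpn2-null IFNg replicate 1 (0.18) or Ptpn2-null vehicle replicate 1 (0.25), and with DESeq2 (0.28). No interaction was computed in A375 because its vehicle libraries go against their labels.

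Of the 46 pathway genes measured in each human line, 38 or 39 were tested. With IFNg in control cells 19 rose and 4 fell in A549, 29 and 2 in HT29, and 3 and 2 in MelJuSo, and over both guides in A375 25 and 8. The shares of all tested genes called were 47.6%, 59.4%, 11.5% and 72.2%. The medians over the list were 0.27, 0.53, 0.02 and 0.33, beside medians within 0.01 of 0 over all genes. In HT29 BIRC3, an inhibitor of apoptosis, rose by 4.35 ± 0.07, while TRAF5 fell (-1.55 ± 0.19). The ligand genes TNF and LTA were called higher there too, and their sizes are not given. In A549 CD40 rose by 1.81 ± 0.20 and NFKB2 by 1.52 ± 0.08, and EDA fell (-2.30 ± 0.34). In Ptpn2-null cells under IFNg 17 were higher and 1 lower in A549, 18 and 2 in HT29, 14 and 8 in MelJuSo, and as labelled 20 and 5 in A375, beside 24.3%, 41.9%, 51.2% and 50.8% of all tested genes called. BIRC3 was higher in MelJuSo (1.81 ± 0.14) and in A375 as labelled (2.15 ± 0.09). TNFAIP3, a deubiquitinase gene and brake on NF-kB, was higher in A549 (0.95 ± 0.15) and lower in MelJuSo (-1.51 ± 0.07). It was also called higher in HT29 (1.13 ± 0.09) and in A375 as labelled (0.52 ± 0.08), values added after they were seen.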

How the data were processed

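The 81 poly(A) libraries (42 B16, 39 human) were made with a directional kit and sequenced as 37-base read pairs, per the labels' protocols. The submitters' processing notes name builds mm10 and hg19 and the tools HTSeq 0.6.1p1 (counting), Bowtie2 2.2.4, Trimmomatic 0.33 and DESeq2. Annotation and strand setting: not given in the sources used here. The authors deposited raw counts per gene, 1 table per line. Genes were filtered with filterByExpr, scaled by TMM and fitted with edgeR 4.0.16 (quasi-likelihood, 1 mean per group, all groups of a line together). P-values were adjusted by Benjamini-Hochberg over all tested genes of a line, with a threshold of 0.05. The procedure was tested on simulated data. Groups follow the labels, and no libraries were identical. Named genes are the members that reached 1 CPM, with statistics for those called, and from the pathway list up to 3 called genes per direction and contrast by size of change. The members and lists were chosen with earlier results of these data known. Alternatives were another scaling, no filter, DESeq2 1.42.0, a replicate block, only the compared groups and leaving out each library. Chosen after seeing the data were removal of the trend on transcript length and leaving out 5 B16 libraries. Members of the superfamilies that are withheld, 4 in all, are not reported here. Intervals of count ratios are exact binomial.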

Additional observations from a re-analysis of the deposited data

Results flagged for a closer look

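The effect of a cytokine differed between genotypes, by the interaction test, for the genes below. Each value is the log2 difference of Ptpn2-null minus control under the cytokine, less the same difference under vehicle, so a positive value is a shift upwards and not always a larger difference. In B16 it was 2.02 for Tnfrsf12a with IFNg, 0.76 with IFNb+IFNg, 0.56 with IFNb+TNFa and 1.02 with IFNg+TNFa, from a vehicle difference of -0.40. For Tnfrsf19 it was 0.68 with IFNg and 0.54 with IFNg+TNFa, from a vehicle difference of -0.03. Tnfrsf23 was called too with IFNg+TNFa (edgeR, adjusted p = 0.015), but its size is not given because Ptpn2-null vehicle cells held 2 of its counts. In A549 the values with IFNg were 0.29 for TNFRSF21 and 2.82 for TNFRSF9. In HT29 they were -0.54 for TNFRSF12A, 1.06 for TNFSF13, -1.30 for TNFSF13B, -0.85 for TNFSF15 and 1.69 for TNFSF9. In MelJuSo they were 0.74 for TNFRSF11A, 0.93 for TNFRSF12A, 0.38 for TNFRSF19 and 0.49 for TNFRSF21. Why the genotypes differ in these responses was not tested.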

How the results depend on the processing

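Of 143 called gene results, 108 kept direction and call in all alternatives run on them. Over 1766 alternatives 143 lost the call and 0 reversed. Alternatives in which a gene was not tested or had no adjusted p are left out of these numbers. Counts of called members moved by over 1.5 times as follows, with the reported count in brackets. Apart from members without a value, named next, the cause was not tested. With only the compared groups in the fit, B16 had 4 (7) for control IFNb+IFNg, 5 (8) for control IFNb+TNFa, 0 (1) and 1 (2) for genotype under TNFa and IFNb+IFNg, and 1 (0) for the IFNb interaction. In both control contrasts the missing calls were Tnfrsf11b, Tnfrsf23 and Tnfrsf25, which gave no value in that fit. They had 12 and 11 alternatives with a value, against 13 and 12 for Tnfrsf12a. With the length trend removed B16 had 0 (1), 0 (1) and 1 (2) for genotype under vehicle, TNFa and IFNb+IFNg, and 0 (1) for the IFNb+TNFa interaction. Lengths were known for 10587 of 11726 genes. Over these the Spearman correlation of log2 fold change with length ran from -0.48 (IFNb+IFNg additivity) to 0.41 (IFNb+TNFa additivity). For control TNFa it was -0.42, and for genotype under vehicle and TNFa 0.33 and 0.30. Without the 5 libraries that stand apart B16 had 5 (3) for the IFNg+TNFa interaction and 2 (1) for IFNb+IFNg additivity. DESeq2 gave 3 (6) for A375 genotype under vehicle, 2 (4) for A549 genotype under IFNg, 0 (2) for the A549 interaction and 2 (5) for the HT29 interaction.

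Leaving out each library gave, in B16 control, 3 to 5 members for IFNb, 2 to 3 for IFNg, 4 to 5 for TNFa, 7 to 8 for IFNb+IFNg, 6 to 8 for IFNb+TNFa and 7 to 7 for IFNg+TNFa. The genotype counts ran 0 to 1 under vehicle and TNFa, 0 to 0 under IFNb and IFNb+TNFa, 3 to 5 under IFNg, 1 to 3 under IFNb+IFNg and 5 to 6 under IFNg+TNFa. Interactions ran 0 to 0 for IFNb and TNFa, 1 to 2 for IFNg, 1 to 1 for IFNb+IFNg, 0 to 1 for IFNb+TNFa and 1 to 3 for IFNg+TNFa, and additivity 1 to 2, 2 to 4 and 4 to 5. IFNg, genotype under vehicle, genotype under IFNg and interaction ran 7 to 9, 0 to 0, 3 to 4 and 0 to 2 in A549, 8 to 8, 2 to 4, 8 to 9 and 2 to 5 in HT29, and 2 to 2, 0 to 0, 4 to 5 and 3 to 5 in MelJuSo. In A375 the first 3 ran 12 to 13, 4 to 5 and 11 to 13. Members that reached 1 CPM numbered 10 to 11 (B16), 9 to 10 (MelJuSo), 13 to 14 (HT29), 17 to 17 (A375) and 14 to 15 (A549). Where this left 1 library in a group, it was assumed to vary like the other groups. Members under about 1 CPM rest on few counts, which limits their precision.

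Replicate numbers were not used to pair the samples: of 273 same-number pairs in B16, 39 had deviations correlated over 0.1, and of 57 in the human lines 2 did. B16 pairs ran from -0.611 to 0.645 with a median of -0.000719, and the A375 median was 0.00156. In A549, HT29 and MelJuSo the medians were 0.0217, 0.0535 and 0.0349, against -0.0217, -0.0535 and -0.0187 for different numbers. Weak pairing there is not excluded. With a replicate block the counts were 7 (8) for control IFNb+TNFa and 4 (3) for the IFNg+TNFa interaction in B16, and 12 (13) and 5 (6) for A375 genotype under IFNg and vehicle. The calls lost were Tnfrsf25 in B16 (1.31), and TNFRSF25 under IFNg (-0.29) and TNFRSF11A under vehicle (-0.88) in A375.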
